A study of Homo sapiens with 21 samples.

Results

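The LIM-only (LMO) family of LMO1, LMO2, LMO3 and LMO4 was examined through its accessible sites in the human neuroblastoma line SK-N-BE(2), long established in culture. A site was taken when the deposited annotation gave an LMO gene as its nearest gene, a rule that used no measured value. It took 75 of the 367900 sites of the series, with 34 at LMO1, 15 at LMO2, 17 at LMO3 and 9 at LMO4. Of these sites, 55 were annotated as intergenic, 14 as intronic, 4 as promoter, 1 as transcription termination site and 1 as exonic. The filter on low counts kept 72 sites and removed 1 each at LMO1, LMO3 and LMO4, which held at most 0.297 CPM on average over all libraries. CPM is the count of a site scaled to a common library size, with TMM-adjusted library totals.

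ATAC-seq reads out open chromatin, since its transposase inserts adapters where DNA is free of nucleosomes. All 21 libraries came from SK-N-BE(2) cells collected 72 h after lentiviral transduction of short hairpin RNAs (shRNAs), in 7 groups of 3 biological replicates. The groups were Control, labelled with that name only and carried in the deposited columns as NSC, the study's non-silencing shRNA, shARID1A.2 and shARID1A.4 with 1 shRNA against ARID1A each, shARID1B.2 and shARID1B.3 with 1 shRNA against ARID1B each, and the combinations shARID1A/B.2.3 and shARID1A/B.4.2 against both genes. ARID1A and ARID1B are mutually exclusive structural subunits of the BAF chromatin remodeller. A hairpin acts on the transcript, so these data hold no measure of the knockdown. The cells were a pool of 1 line, and every group shares its genotype and culture.

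Libraries held 16140029 to 44472230 reads in sites, and the counting error of a site is smaller in the deeper libraries. Promoter sites were found for 7 of 12 markers of the adrenergic neuroblastoma state and for 4 of 9 mesenchymal markers, and for none of 4 blood, 3 epithelial, 2 hepatocyte and 2 muscle markers. A site was called closed or opened at a false discovery rate (FDR) under 0.01 in the edgeR quasi-likelihood test over 357029 tested sites, and log2 changes are given with their standard error (SE).

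LMO proteins consist of tandem LIM domains and do not bind DNA themselves. They bridge transcription factors, of the GATA and basic helix-loop-helix families among others, to the cofactor LDB1, and a set of LDB1-bound partners decides which genes such a complex reaches. LMO1 is a neuroblastoma susceptibility gene and oncogene, with common risk variants in its first intron, and belongs to the adrenergic transcription factor circuit of this tumour. LMO2 is needed for blood cell formation and is an oncogene of T-cell leukaemia, LMO3 is mainly a gene of the nervous system, and LMO4 is expressed widely, in epithelial and neural tissue among others.

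Sites are named by gene and by the distance of their centre from the start that the deposited annotation used, negative upstream and positive downstream. For LMO1 this is an internal start, so that the farther upstream start lies in the site at -4.8 kb. The sequences below are the central 300 bases, in GRCh38, of 5 sites at LMO1 and LMO4. Among the sites called closed at these genes after combined silencing, they had the largest log2 falls. LMO1 +6.8 kb (-0.64) and LMO1 -104.6 kb (-0.62), which were not called, fell slightly more than LMO1 +34.4 kb (-0.61). They are shown for the size of these log2 changes, and none is a promoter. Capitals mark exact matches on either strand to the searched motifs. For GATA factors these were AGATAA and TGATAA. The E-box bound by MYC proteins was CACGTG. For AP-1 the motif was TGANTCA, for homeodomain factors TAATTA and for SP and KLF factors CCGCCC.
LMO1 -19.8 kb, chr11:8283571-8283870, plus strand: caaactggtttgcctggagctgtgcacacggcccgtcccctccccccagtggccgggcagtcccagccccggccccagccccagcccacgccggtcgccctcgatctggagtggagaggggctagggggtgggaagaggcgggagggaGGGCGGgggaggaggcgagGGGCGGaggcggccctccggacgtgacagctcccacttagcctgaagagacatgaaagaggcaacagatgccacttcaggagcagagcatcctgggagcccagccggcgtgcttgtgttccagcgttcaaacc
LMO1 +20.7 kb, chr11:8243037-8243336, plus strand: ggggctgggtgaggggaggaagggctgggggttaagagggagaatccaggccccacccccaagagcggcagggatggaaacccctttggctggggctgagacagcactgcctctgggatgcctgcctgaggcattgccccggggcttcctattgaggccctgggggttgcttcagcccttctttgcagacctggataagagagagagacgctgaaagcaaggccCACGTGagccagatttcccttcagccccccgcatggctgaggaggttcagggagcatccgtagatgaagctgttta
LMO1 +34.4 kb, chr11:8229341-8229640, plus strand: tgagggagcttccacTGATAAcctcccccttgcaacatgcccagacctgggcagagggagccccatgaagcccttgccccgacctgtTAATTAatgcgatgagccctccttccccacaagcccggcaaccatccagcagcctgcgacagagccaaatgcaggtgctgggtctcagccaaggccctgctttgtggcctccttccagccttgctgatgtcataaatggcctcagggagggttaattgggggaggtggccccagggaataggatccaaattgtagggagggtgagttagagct
LMO4 -25.8 kb, chr1:87305798-87306097, plus strand: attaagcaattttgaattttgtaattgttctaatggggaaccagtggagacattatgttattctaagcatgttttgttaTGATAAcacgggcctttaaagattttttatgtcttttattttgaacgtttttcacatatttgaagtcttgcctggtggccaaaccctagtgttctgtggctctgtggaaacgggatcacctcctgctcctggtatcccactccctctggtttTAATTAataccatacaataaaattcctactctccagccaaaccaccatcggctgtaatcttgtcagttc
LMO4 -46.9 kb, chr1:87284676-87284975, plus strand: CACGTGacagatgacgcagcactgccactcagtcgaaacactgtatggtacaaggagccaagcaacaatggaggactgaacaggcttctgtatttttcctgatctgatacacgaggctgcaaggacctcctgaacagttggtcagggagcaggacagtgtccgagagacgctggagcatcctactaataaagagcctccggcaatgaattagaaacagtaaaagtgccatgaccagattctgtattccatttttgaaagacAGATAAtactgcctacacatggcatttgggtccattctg

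Each of these 5 windows held a match to at least 1 of the motifs. LMO1 +34.4 kb and LMO4 -25.8 kb each held a GATA match and a TAATTA match, LMO1 +20.7 kb held CACGTG, LMO4 -46.9 kb held CACGTG and a GATA match, and LMO1 -19.8 kb held 2 copies of GGGCGG, the reverse strand of CCGCCC. Over the 10 sites that closed after combined silencing, 4 central windows held a GATA match, 2 CACGTG, 1 the AP-1 motif, 3 TAATTA and 2 CCGCCC. In all 308648 windows of this length in the series, the shares were 27.5% for GATA, 4.09% for CACGTG, 10.6% for AP-1, 8.19% for TAATTA and 9.58% for CCGCCC. The wider E-box CANNTG, which includes CACGTG, was in 8 of the 10 windows and in 81.2% of all windows. A match is a description of the letters and not evidence of a bound factor, and these windows cover only part of each site.

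The main comparison asked what happens to accessibility when both ARID1 subunits are silenced, as the mean of the 2 combinations against Control. At the LMO genes 10 sites closed and 1 opened of 72 tested, against 10.3% of all tested sites closed and 3.43% opened in the series, which puts the closed share of the family, 13.9%, near the background. The count depends on the scaling, since 19 of the 72 LMO sites closed when libraries were scaled on promoter sites, against 15.9% of all sites. The 10 closed sites lay at LMO1 (5 of 33), LMO4 (4 of 8) and LMO2 (1 of 15), and the opened site was the one over the LMO4 starts. None of the 16 LMO3 sites was called by edgeR, where 6 had an unadjusted p under 0.05, or by DESeq2, where 4 did. Of the closed sites 6 were intergenic, 4 intronic and 0 promoter sites, at 3585 to 46896 bases from the annotated start. In the series 9.39% of intergenic and 12% of intronic sites closed, and 1.9% and 2.09% opened. Counted by libraries instead, all 6 combination libraries were below all Control libraries at 11 LMO sites and above them at 3 (background 10.8% and 4.85%). The median log2 change was -0.01 over the 72 sites and 0.03 over all tested sites. By gene, the median was -0.07 at LMO1, 0.10 at LMO2, 0.01 at LMO3 and -0.46 at LMO4. All 8 tested LMO4 sites had an unadjusted p under 0.05 in edgeR, in either direction, so the family median does not describe that gene.

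**Figure D1:**
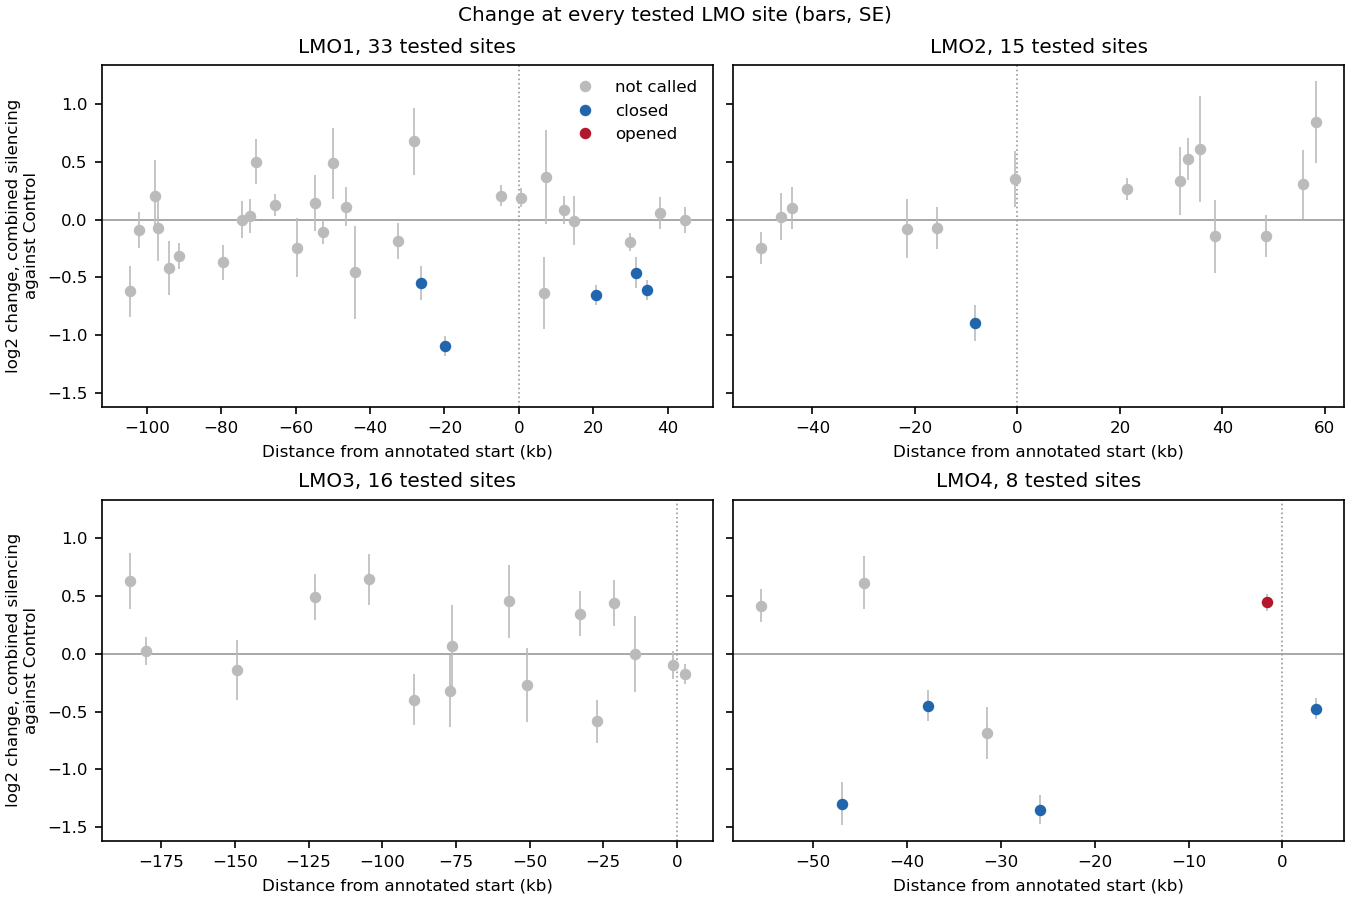
Log2 change after combined silencing against Control (y axis) by distance from the annotated start in kb (x axis) for every tested site of the 4 genes, with SE as bars. Closed sites (blue) lie on both sides of the LMO1 start and mainly upstream of LMO4, the opened site (red) covers the LMO4 starts, and no LMO3 site is coloured.

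At LMO1, the deepest loss was at the intergenic site LMO1 -19.8 kb (chr11:8282651-8284791, GRCh38), whose sequence opens the set above. It measured 22.5, 19.8 and 21.5 CPM in the Control libraries, 7.62, 7.18 and 8.79 with shARID1A/B.2.3 and 12.2, 11.6 and 14.4 with shARID1A/B.4.2. All 6 combination libraries were below all Control libraries. Such separation was required of the sites named here as largest falls or rises, so at those sites it adds no support to the test. Against a Control level of 21.3 ± 1.37 CPM (SD, n = 3), the log2 change was -1.10 (SE 0.09, FDR 3.7e-19). Of the single shRNAs, shARID1A.2 left 10.6 ± 1.10 CPM and shARID1A.4 left 17.2 ± 0.556 (SD, n = 3 each). The ARID1B shRNAs left 18.6 ± 0.692 CPM (shARID1B.2) and 16.0 ± 1.68 (shARID1B.3; SD, n = 3 each). Every silenced library was thus below every Control library at this site, and the level was lowest where both genes were targeted with shARID1A/B.2.3.

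Within the gene body of LMO1, 3 intronic sites closed. LMO1 +20.7 kb (chr11:8242079-8244295, intron 1 of 3) measured 21.5, 20.4 and 22.4 CPM in Control, 12.5, 10.5 and 12.8 with shARID1A/B.2.3 and 15.9, 16.2 and 15 with shARID1A/B.4.2. Its log2 change was -0.65 (SE 0.08, FDR 4.6e-10), and here too all 18 silenced libraries lay below the Control libraries. LMO1 +34.4 kb (chr11:8229092-8229889, intron 2 of 3) measured 19.2, 16.5 and 18.4 CPM in Control, 12.9, 11.1 and 13.1 with shARID1A/B.2.3 and 10.4, 10.8 and 12.6 with shARID1A/B.4.2. Its log2 change was -0.61 (SE 0.09, FDR 1.1e-08). At this site the combinations did not overlap Control, whereas shARID1A.4 and both ARID1B groups did. Per length it was the most accessible of the LMO1 sites named here, with 22.6 CPM per kb in Control.

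The site with the most reads at LMO1 behaved differently from its neighbours. LMO1 +29.8 kb (chr11:8233155-8235014, intron 1 of 3) measured 32.3, 31.2 and 30.4 CPM in Control, 25.1, 22.7 and 23.9 with shARID1A/B.2.3 and 29.7, 33.0 and 31.6 with shARID1A/B.4.2. Only the first combination was below Control, and the averaged change, -0.19 (SE 0.08, FDR 0.065), did not pass the test. With shARID1A/B.2.3 alone it was -0.39 (SE 0.09, FDR 0.00034), and the change with shARID1A/B.4.2 was 0.01 (SE 0.09, FDR 0.98). The averaged change passed when libraries were scaled on promoter sites (-0.43, FDR 1.8e-08) and with an offset for GC content (-0.29, FDR 0.00024), so its call depends on the scaling.

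The smaller falls at LMO1 were at 2 sites that were named after their values had been seen. LMO1 +31.5 kb (chr11:8232137-8232523, intron 1 of 3) held 3.67 ± 0.224 CPM in Control and, in the combinations, 2.69 ± 0.473 and 2.69 ± 0.269 (SD, n = 3 each). Its log2 change was -0.46 (SE 0.14, FDR 0.0086). LMO1 -26.3 kb (chr11:8289451-8290835, intergenic) had 3.49 ± 0.648 CPM in Control, against 2.25 ± 0.738 (shARID1A/B.2.3) and 2.64 ± 0.206 (shARID1A/B.4.2). Its libraries overlapped, and the log2 change was -0.55 (SE 0.15, FDR 0.0032). Both calls are weak: leaving out 1 library in turn took the FDR past 0.01 in 12 of 21 cases at the first site, up to 0.072 without Control replicate 3, and in 5 of 21 at the second, up to 0.074 without the same library.

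The LMO1 starts did not close. LMO1 +0.6 kb (chr11:8262280-8264217), which covers 3 transcript starts, measured 20.7 ± 1.47 CPM in Control, 20.8 ± 2.79 with shARID1A/B.2.3 and 26.7 ± 0.935 with shARID1A/B.4.2. The averaged log2 change was 0.19 (SE 0.08, FDR 0.11). At the promoter LMO1 -4.8 kb (chr11:8267820-8269457) the levels were 13.9, 13.2 and 13.3 CPM in Control, 13.5, 11.1 and 13.1 with shARID1A/B.2.3 and 20.2, 18.5 and 19.2 with shARID1A/B.4.2. All 3 libraries of shARID1A/B.4.2 were above Control, and those of shARID1A/B.2.3 overlapped it. With shARID1A/B.4.2 alone both sites opened, by a log2 of 0.37 (SE 0.10, FDR 0.0026) and 0.52 (SE 0.10, FDR 4.0e-05), and both calls were lost with promoter scaling (FDR 0.72 and 0.088) and with GC offsets (FDR 0.66 and 0.48). In the series 33.4% of promoter sites opened and 4.24% closed after combined silencing.

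**Figure D2:**
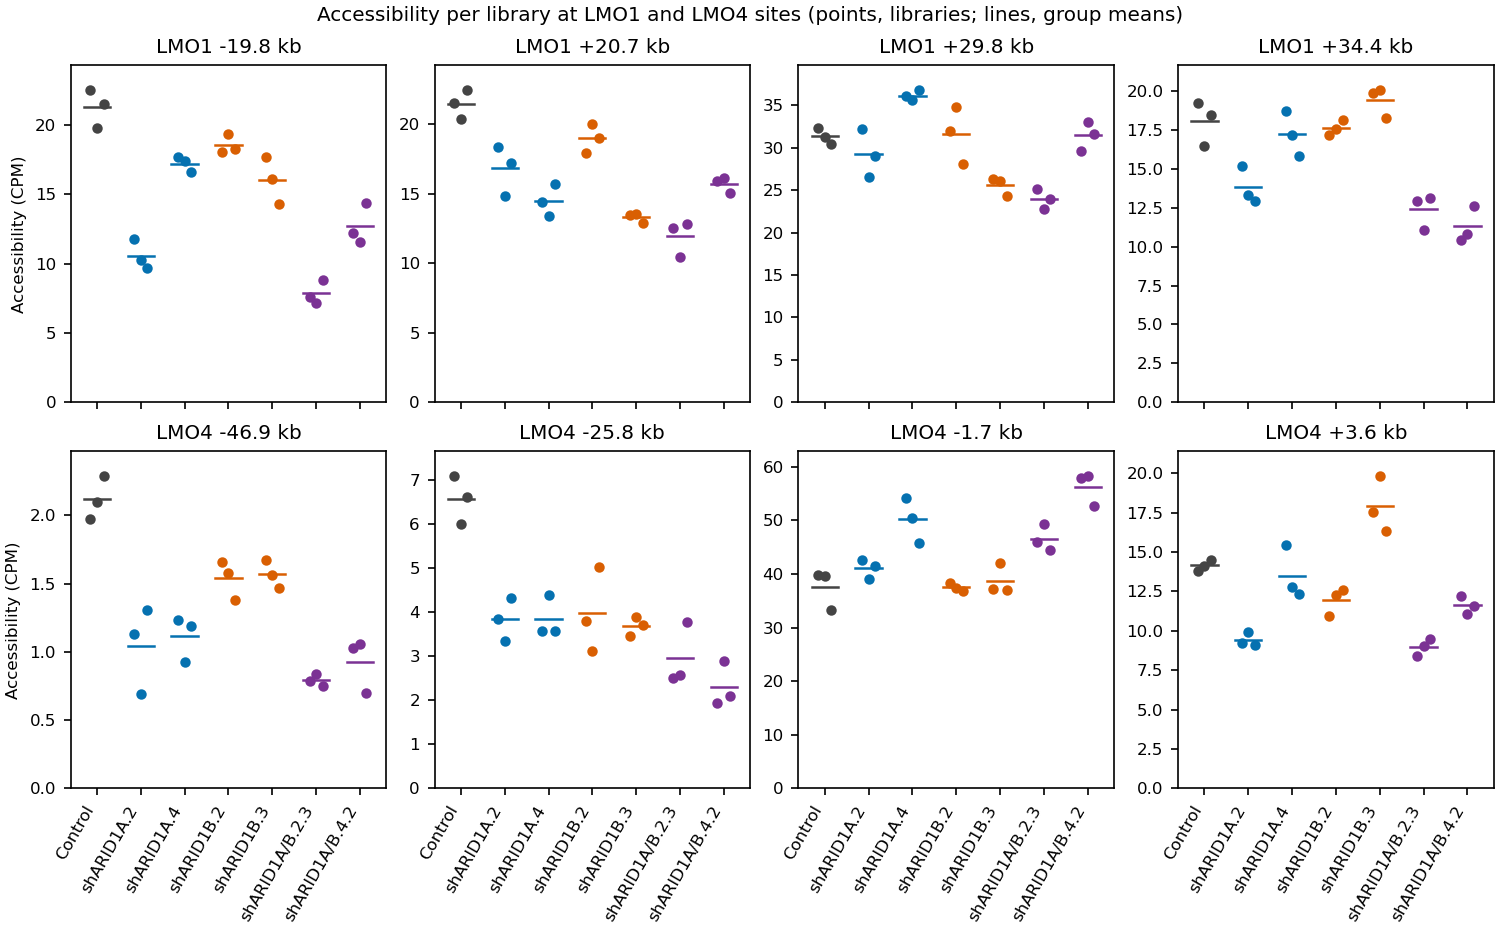
Accessibility in CPM (y axis, from 0) in each of the 21 libraries at 4 LMO1 and 4 LMO4 sites, by group (x axis), with points for libraries and lines for group means. LMO1 -19.8 kb, LMO1 +20.7 kb, LMO4 -46.9 kb and LMO4 -25.8 kb are below Control in every silenced library, LMO1 +29.8 kb is lower with only 1 of the combinations, and LMO4 -1.7 kb is higher with both.

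LMO4 had the highest share of closed sites, 4 of 8 tested, all but 1 of them upstream. LMO4 -25.8 kb (chr1:87304978-87306918, intergenic) measured 7.07, 6.0 and 6.61 CPM in Control, 2.50, 2.58 and 3.78 with shARID1A/B.2.3 and 1.93, 2.90 and 2.09 with shARID1A/B.4.2. Its log2 change of -1.35 (SE 0.13, FDR 4.5e-15) was the largest fall of the family. The 4 single shRNAs gave nearly the same level as each other, 3.83 ± 0.491, 3.84 ± 0.474, 3.97 ± 0.968 and 3.68 ± 0.216 CPM (SD, n = 3 each, in the order of the groups above), between Control and the combinations. Each of the 4 changes passed the test, from -0.71 (SE 0.15, FDR 0.00053) with shARID1B.2 to -0.83 (SE 0.14, FDR 2.9e-06) with shARID1B.3.

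LMO4 -46.9 kb (chr1:87284410-87285242, intergenic) was a small site with 1.97, 2.10 and 2.28 CPM in Control, 0.788, 0.836 and 0.747 with shARID1A/B.2.3 and 1.03, 1.06 and 0.696 with shARID1A/B.4.2. It fell by 1.30 on the log2 scale (SE 0.19, FDR 1.6e-08), and all 18 silenced libraries were below Control. A weaker fall was at LMO4 -37.8 kb (chr1:87292864-87294985, intergenic), named after its values had been seen, with 4.08 ± 0.322 CPM in Control against 2.89 ± 0.281 (shARID1A/B.2.3) and 3.12 ± 0.516 (shARID1A/B.4.2). Its log2 change was -0.45 (SE 0.13, FDR 0.0079), and the call was lost in 11 of 21 fits that left out 1 library, with an FDR of up to 0.060 without Control replicate 1.

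The closed site within the LMO4 gene was LMO4 +3.6 kb (chr1:87334430-87336184, intron 2 of 4). It measured 13.8, 14.1 and 14.5 CPM in Control, 8.40, 9.01 and 9.50 with shARID1A/B.2.3 and 12.2, 11 and 11.5 with shARID1A/B.4.2. The combinations did not overlap Control, as the naming of the site required, and the log2 change was -0.47 (SE 0.09, FDR 1.7e-05). The single shRNAs of each gene gave different levels here. With ARID1A targeted the level was 9.44 ± 0.450 CPM (shARID1A.2) or 13.5 ± 1.68 (shARID1A.4), and with ARID1B targeted 11.9 ± 0.886 (shARID1B.2) or 17.9 ± 1.76 (shARID1B.3; SD, n = 3 each). Against the Control level of 14.2 ± 0.351 CPM, shARID1A.2 and shARID1B.2 lay below in all libraries, shARID1B.3 lay above and shARID1A.4 overlapped, and of these changes only that with shARID1A.2 passed the test (-0.58, SE 0.11, FDR 2.8e-05).

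The opened site, LMO4 -1.7 kb (chr1:87327986-87332128), covers 4 LMO4 transcript starts in GENCODE, although the deposited annotation places its centre in intron 1. The 250 bases before the first of these starts, from RefSeq, are shown and marked in the same way.
LMO4 upstream of the start, chr1:87328630-87328879, plus strand: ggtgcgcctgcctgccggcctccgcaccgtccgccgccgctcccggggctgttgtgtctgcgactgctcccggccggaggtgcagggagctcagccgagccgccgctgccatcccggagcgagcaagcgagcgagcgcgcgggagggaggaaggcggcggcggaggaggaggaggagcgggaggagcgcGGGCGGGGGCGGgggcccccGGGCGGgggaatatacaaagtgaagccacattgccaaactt

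This stretch held 3 copies of GGGCGG, 2 of them in 1 unbroken run of capitals, and none of the other motifs, the wider E-box included. It is not the part that was read at the closed sites. The central 300 bases of LMO4 -1.7 kb held 1 GATA, 1 AP-1 and 1 TAATTA match, and 0 of CCGCCC. Another RefSeq promoter inside the site held 2 copies of CCGCCC and 1 wider E-box. CCGCCC was present on either strand in 42.6% of 35116 RefSeq promoters. LMO4 -1.7 kb measured 39.8, 39.7 and 33.4 CPM in Control, 45.9, 49.4 and 44.5 with shARID1A/B.2.3 and 58.0, 58.2 and 52.7 with shARID1A/B.4.2, so that all 6 combination libraries were above Control. The log2 change was 0.45 (SE 0.07, FDR 7.4e-07). It passed under every scaling tried, down to 0.21 (FDR 0.0088) with promoter scaling, which moved the median change of all sites from 0.03 to -0.20. Of the called LMO4 sites, the closed ones thus lay away from the starts and the opened one over them, in the same libraries. An LMO4 site that was not called had a larger rise, with a log2 change of 0.62.

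LMO2 had 1 closed site. LMO2 -8.2 kb (chr11:33898862-33900155, intergenic), named after its values had been seen, measured 3.37, 3.08 and 2.81 CPM in Control, 1.31, 1.05 and 1.67 with shARID1A/B.2.3 and 1.66, 1.84 and 2.83 with shARID1A/B.4.2. The highest library of shARID1A/B.4.2 reached into the Control range, and the log2 change was -0.90 (SE 0.16, FDR 3.0e-06). The most accessible LMO2 site, the promoter LMO2 +21.4 kb (chr11:33868756-33871000), which covers 4 transcript starts, measured 11.9 ± 0.326 CPM in Control, 12.5 ± 1.30 with shARID1A/B.2.3 and 16.5 ± 1.62 with shARID1A/B.4.2. Its averaged change of 0.27 (SE 0.09, FDR 0.034) did not pass, but did without shARID1A/B.2.3 replicate 2 (0.34, FDR 0.0029). The other promoter, LMO2 -0.5 kb (chr11:33891372-33892166), was barely accessible, with 0.777 ± 0.131 CPM in Control and a log2 change of 0.35 (SE 0.24, FDR 0.35).

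LMO3 held no called site in this comparison. Its main promoter, LMO3 +2.7 kb (chr12:16604097-16607008), covers 11 LMO3 transcript starts and also lies in an annotated transcript of MGST1. It measured 16.9, 17.5 and 17.2 CPM in Control, 14.9, 16.1 and 13.3 with shARID1A/B.2.3 and 14.4, 15.6 and 17.3 with shARID1A/B.4.2. The libraries overlapped, and the log2 change was -0.17 (SE 0.08, FDR 0.16). With promoter scaling it was -0.41 (FDR 2.5e-05). The other 15 tested LMO3 sites changed by -0.59 to 0.64, and 25 of the 72 LMO sites had under 1 CPM in Control, where the depth allows only large changes to be called.

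Single silencing asked which of these changes were also called with only 1 of the genes targeted. Knockdown was not measured, so the calls cannot show which subunit a change needs. With the 2 ARID1A shRNAs averaged, 7 LMO sites closed and 1 opened (background 5.37% and 1.67%), and with the 2 ARID1B shRNAs 2 closed and 1 opened (background 3.53% and 1.39%). Of the 10 sites closed by the combinations, 7 were also called closed with ARID1A silencing, and 2 of these, LMO1 +20.7 kb and LMO4 -25.8 kb, with ARID1B silencing as well. This overlap was not counted over all sites of the series, so it has no background here. The ARID1A calls at LMO4 +3.6 kb (FDR 0.0089) and LMO1 -26.3 kb (FDR 0.0069) were weak. They were lost in 17 and 11 of 21 fits that left out 1 library. Without Control replicate 1 only 4 sites closed with ARID1A silencing. All these comparisons share the Control libraries. LMO1 -19.8 kb changed by -0.66 with ARID1A (SE 0.09, FDR 4.8e-09) and by -0.30 with ARID1B (SE 0.09, FDR 0.013). LMO4 -46.9 kb changed by -0.99 (SE 0.19, FDR 3.3e-05) and -0.45 (SE 0.17, FDR 0.094), and LMO4 -1.7 kb by 0.27 (SE 0.07, FDR 0.0062) and 0.02 (SE 0.07, FDR 0.92). The ARID1A call at LMO4 -1.7 kb was lost with promoter scaling (FDR 0.47).

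The opened site after ARID1B silencing was at LMO3. LMO3 -1.3 kb (chr12:16608598-16610512, intron 1 of 3), which covers 6 transcript starts, measured 4.52, 4.60 and 4.57 CPM in Control, 5.16, 4.46 and 5.66 with shARID1B.2 and 6.42, 7.81 and 8.40 with shARID1B.3. Only shARID1B.3 was above Control in all libraries, and the averaged change was 0.44 (SE 0.12, FDR 0.0073). This call was lost with promoter scaling (0.31, FDR 0.12) and in 7 of 21 fits without 1 library, most without Control replicate 1 (FDR 0.036).

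**Figure D3:**
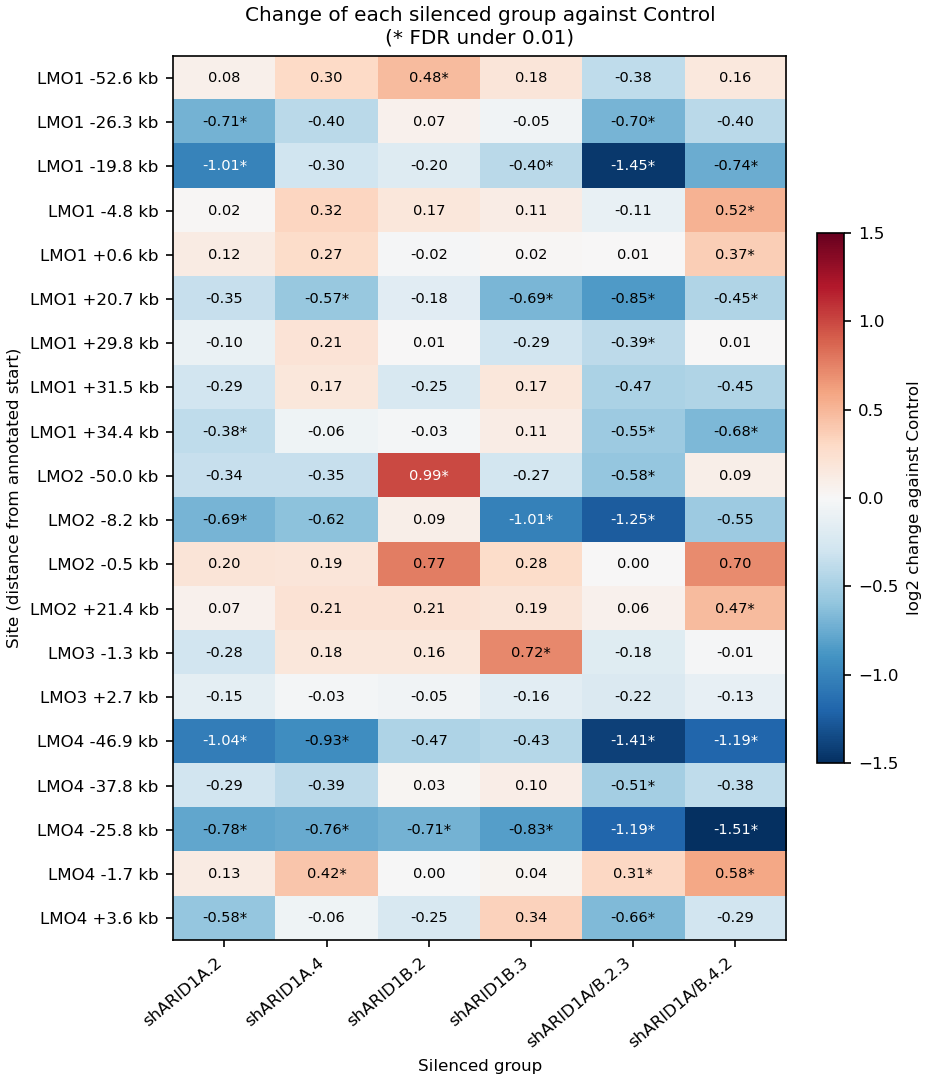
Log2 change of each silenced group against Control (colour scale and printed value) at the 20 LMO sites named here and in the comparisons below (rows), by silenced group (columns), with an asterisk for an FDR under 0.01. LMO4 -25.8 kb has an asterisk in all 6 groups, whereas LMO2 -50.0 kb is called higher with shARID1B.2 only and LMO3 -1.3 kb with shARID1B.3 only.

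The difference between ARID1A and ARID1B silencing was tested directly. It was called at 10 LMO sites, 8 lower with ARID1A and 2 higher, against 3.69% and 1.05% of all tested sites. The total was 6 without shARID1A.2 replicate 3, shARID1B.2 replicate 3 or shARID1B.3 replicate 2. At LMO1 -19.8 kb it was -0.36 (SE 0.07, FDR 0.00021) and at LMO4 +3.6 kb -0.37 (SE 0.08, FDR 0.00015). LMO4 -1.7 kb was higher with ARID1A silencing by 0.25 (SE 0.06, FDR 0.0017). The averages joined shRNAs with different levels. At LMO1 -19.8 kb the mean with shARID1A.4 (17.2 CPM) was above that with shARID1B.3 (16.0 CPM), and at LMO4 +3.6 kb shARID1A.4 (13.5 CPM) was above shARID1B.2 (11.9 CPM). At LMO4 -1.7 kb the change passed with shARID1A.4 (0.42, SE 0.08, FDR 0.00015) and not with shARID1A.2 (0.13, SE 0.08, FDR 0.44). The largest difference was at LMO2 -50.0 kb (chr11:33940343-33942260, intergenic), at -0.70 (SE 0.11, FDR 1.4e-06). It also rested on 1 shRNA, since the site measured 5.78, 5.30 and 6.07 CPM with shARID1B.2, against 2.54, 2.31 and 2.31 with shARID1B.3 and 3.03, 2.59 and 3.05 in Control. In the same way LMO3 -1.3 kb differed by -0.49 (SE 0.10, FDR 9.4e-05) with a rise in shARID1B.3 but not in shARID1B.2.

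The shRNAs of a gene also differed at LMO1. LMO1 -19.8 kb changed by -1.01 (SE 0.10, FDR 1.3e-12) with shARID1A.2 and by -0.30 (SE 0.10, FDR 0.037) with shARID1A.4, and LMO1 +20.7 kb by -0.18 (SE 0.10, FDR 0.35) with shARID1B.2 and by -0.69 (SE 0.10, FDR 2.7e-08) with shARID1B.3. The difference between shRNAs of 1 gene was not tested. Singly, the shRNAs closed 8 and opened 0 LMO sites with shARID1A.2 (background 4.54% and 0.834%), 3 and 1 with shARID1A.4 (4.17% and 2.28%), 1 and 2 with shARID1B.2 (1.84% and 1.34%), and 4 and 1 with shARID1B.3 (4.88% and 3.12%). Knockdown by each shRNA was not measured here, and its part in these differences was not tested.

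Combined silencing was also set against the 4 single-shRNA groups, without Control. At 8 LMO sites accessibility was lower with the combinations and at 3 it was higher (background 6.85% and 0.969%), and 6 of the 10 closed sites were among the lower ones. The closed sites had been called on low values in the same combination libraries. This overlap was therefore favoured in advance and adds no support. LMO1 -19.8 kb was lower by 0.62 on the log2 scale (SE 0.07, FDR 1.9e-12), LMO1 +34.4 kb by 0.52 (SE 0.06, FDR 2.8e-10) and LMO4 -25.8 kb by 0.58 (SE 0.10, FDR 9.4e-06). LMO4 -1.7 kb was higher by 0.30 (SE 0.05, FDR 2.5e-06). LMO1 +20.7 kb, which fell with each gene alone, differed by -0.21 (SE 0.06, FDR 0.015) and did not pass. Promoter scaling shifts changes downwards, and the 3 higher calls were still made with it, with an FDR of at most 0.0035.

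Whether the combined change departed from adding up both single-gene changes was tested as an interaction, which was called at 1 LMO site, negative in sign (background 0.376% negative and 0.14% positive). LMO1 -52.6 kb (chr11:8315153-8317805, intergenic) measured 9.33, 7.15 and 8.94 CPM in Control, 6.53, 6.46 and 6.51 with shARID1A/B.2.3 and 9.23, 10.2 and 8.95 with shARID1A/B.4.2, while shARID1B.2 gave 11.4, 11.9 and 12.0. The departure was -0.63 (SE 0.13, FDR 0.0030), with averaged single-gene changes of 0.19 for ARID1A and 0.33 for ARID1B and one of -0.38 for shARID1A/B.2.3. The site itself did not change with the averaged combinations (-0.11, SE 0.10, FDR 0.53), and the departure did not pass without 1 of 3 libraries, at most with an FDR of 0.030 without Control replicate 2. At LMO1 -19.8 kb the departure was -0.14 (SE 0.11, FDR 0.62), and at LMO4 -25.8 kb 0.19 (SE 0.17, FDR 0.67), neither distinguishable from the sum of the single changes.

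The 2 combinations were compared with each other as a check on the shRNAs. Against Control, shARID1A/B.2.3 closed 13 and opened 1 LMO site (background 10.4% and 2.85%), shARID1A/B.4.2 closed 5 and opened 4 (background 7.37% and 3.97%), and 5 of the 10 sites closed on average closed with each. Without its replicate 2, shARID1A/B.2.3 had 9 calls in place of 14. Of the 4 sites opened with shARID1A/B.4.2, only LMO4 -1.7 kb was also called with promoter scaling and with GC offsets, while LMO1 +0.6 kb, LMO1 -4.8 kb and LMO2 +21.4 kb were lost with both (for LMO2 +21.4 kb, FDR 0.26 and 0.65). Directly, 9 sites were lower with shARID1A/B.2.3, 7 of them at LMO1 and 2 at LMO2, and 0 were higher (background 3.79% and 1.43%). In the higher direction 1 site had an unadjusted p under 0.05 in edgeR, and DESeq2 called 0. At LMO1 -4.8 kb the difference was -0.63 (SE 0.10, FDR 1.4e-06) and at LMO1 -19.8 kb -0.70 (SE 0.11, FDR 6.5e-07). Of the 9 calls, 4 held when libraries were scaled by total counts only, and 2, these sites, held with promoter scaling as well. Without shARID1A/B.4.2 replicate 2 the number was 4 and without shARID1A/B.2.3 replicate 2 it was 5. Thus the size of the difference between combinations depends on the scaling at most of these sites. At LMO4 edgeR called no difference between the combinations, with an unadjusted p under 0.05 at 2 of 8 sites, and DESeq2 called 2.

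Summed over all sites of a gene, only LMO1 changed after combined silencing. In a fit over the sums of 26743 genes, 20.9% of genes fell and 15.9% rose. LMO1 held 209, 201 and 206 CPM in Control, 164, 153 and 161 with shARID1A/B.2.3 and 179, 184 and 181 with shARID1A/B.4.2, and the groups did not overlap. Its log2 change was -0.27 (SE 0.04, FDR 3.6e-06), and it stayed between -0.45 and -0.20 under 32 alternatives, with an FDR of at most 0.0011. The fall was -0.37 (SE 0.04, FDR 6.9e-07) with shARID1A/B.2.3 and -0.18 (SE 0.04, FDR 0.0019) with shARID1A/B.4.2, and the combinations differed (FDR 0.0041). In these fits 18.8% of genes fell and 11.9% rose with shARID1A/B.2.3, 19.5% and 15.9% did with shARID1A/B.4.2, and 7.64% were lower and 6.07% higher with the first than with the second.

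The sums of the other genes did not pass the test. LMO2 held 30.6 ± 1.66 CPM in Control and changed by 0.04 (SE 0.05, FDR 0.59), LMO3 held 40.2 ± 3.47 and changed by -0.10 (SE 0.09, FDR 0.36), and LMO4 held 72.3 ± 4.43 and changed by 0.03 (SE 0.06, FDR 0.68). At LMO4 the sum hid the opposite moves of its sites, since LMO4 -1.7 kb alone held 37.6 of these 72.3 CPM. With promoter scaling the changes were -0.14 for LMO2 (FDR 0.042), -0.28 for LMO3 (FDR 0.020) and -0.14 for LMO4 (FDR 0.057), still short of 0.01. With shARID1B.2 alone, the LMO2 sum rose by 0.31 (SE 0.06, FDR 0.0015), from 32.2, 28.9 and 30.8 CPM to 37.7, 38.9 and 37.1 (background 5.38% lower and 3.28% higher).

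**Figure D4:**
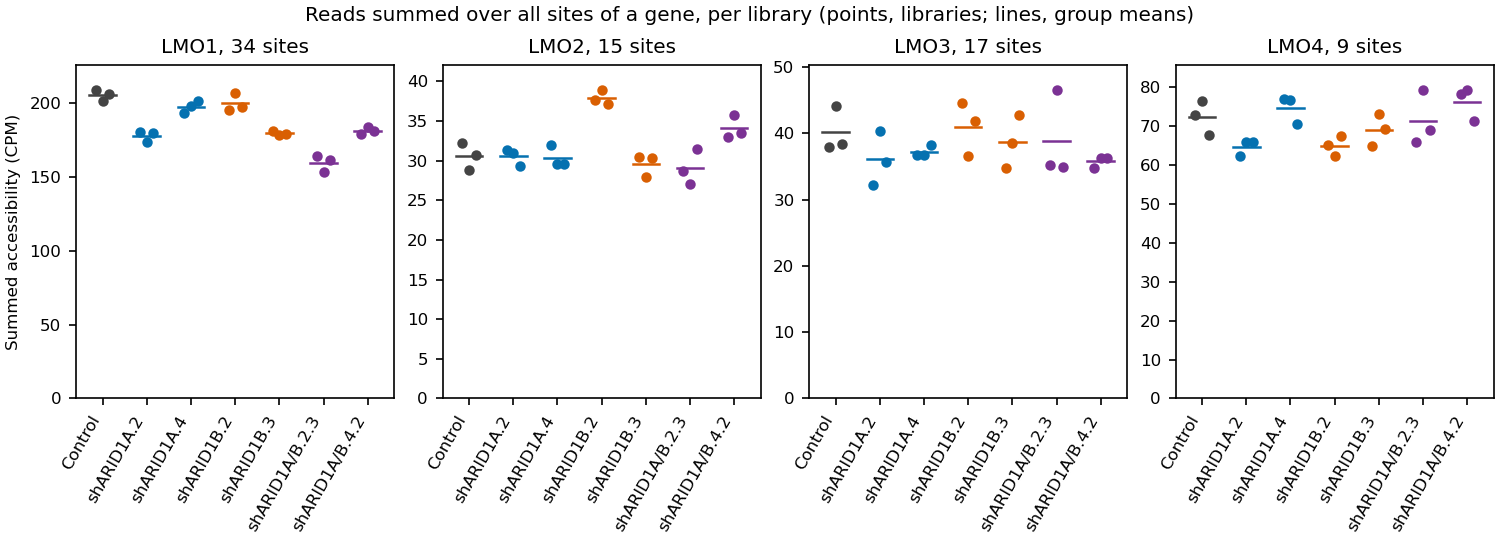
Reads summed over all sites of each gene in CPM (y axis, from 0) in each library, by group (x axis), with points for libraries and lines for group means. LMO1 is lower in all 6 combination libraries (153 to 184 CPM) than in Control (201 to 209 CPM), and the combination libraries overlap Control for the other genes.

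The genes whose summed accessibility over the 21 libraries was most like each member were found among 14633 genes with at least 5 tested sites. For LMO1 they were ADAM12 (Pearson r 0.979), KCNH2 (0.967) and LOC101928389 (0.960), for LMO2 IL15RA (0.903), ABHD12 (0.891) and TCP10L (0.879), for LMO3 LINC00871 (0.938), DDX18 (0.925) and MB21D2 (0.925), and for LMO4 IKBIP (0.905), EI24 (0.853) and GOLGA2P5 (0.853). Among the LMO genes themselves r ran from -0.28 (LMO2 and LMO4) to 0.43 (LMO1 and LMO2), so the members did not move together. These values describe libraries that share their groups and depth, and were picked as the highest of many.

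Genes that work with the LMO proteins gave the setting. The LIM-complex partners were a list of 16 genes. It held LDB1, LDB2, SSBP cofactors, GATA and helix-loop-helix factors, RLIM and CBFA2T3. Of their 246 tested sites 44 closed and 12 opened after combined silencing (17.9% and 4.88%), with a median log2 change of -0.12. The closed sites lay at 9 of the 14 partner genes with a tested site. Of 325 sites of the adrenergic circuit 54 closed and 13 opened (16.6% and 4.0%), with a median of -0.01. Of 250 sites of the LIM-homeobox genes 30 closed and 6 opened (12.0% and 2.4%), with a median of -0.02. Over all tested sites the shares were 10.3% and 3.43%, with a median of 0.03, so that the LIM-homeobox genes were near the background. Of the 8 partner genes with a tested promoter site, 4 opened and none closed, where 33.4% of promoter sites opened in the series. The opened ones were SSBP3 (0.51, SE 0.09, FDR 1.1e-05) and SSBP4 (0.59, SE 0.09, FDR 4.8e-08), which stabilise LDB1, the helix-loop-helix factor TCF3 (0.49, SE 0.10, FDR 2.9e-05) and the DNA-binding partner GATA2 (0.45, SE 0.11, FDR 0.0014). The changes at LDB1 (0.28, FDR 0.015), TCF4 (0.23, FDR 0.045), TCF12 (0.22, FDR 0.036) and TAL1 (-0.23, FDR 0.18) did not pass. Of the 8 adrenergic circuit promoters, PHOX2A, SOX11 and GATA2 opened, and of the 4 LIM-homeobox promoters ISL2 did. Among the cell type markers, 2 of 7 adrenergic promoters opened and 1, DBH, closed (-0.45, SE 0.10, FDR 0.00051). Of the mesenchymal promoters, CD44 closed (-0.33, SE 0.09, FDR 0.0046), and FN1, TWIST1 and WWTR1 were not called. The part of these markers in the LMO results was not tested. These lists share GATA2, GATA3 and ISL1 among them, and sites of 1 gene are not independent of each other.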

How the data were processed

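ATAC-seq libraries of 7 groups (n = 3 each, 21 in all) were analysed from the tables the authors deposited, which hold raw counts per library for 367900 consensus sites and, from HOMER, the nearest gene and the distance in bases to its start. The labels name GRCh38 and DESeq2. For the aligner, peak caller and read shifting, the sources used here give no tool. The authors' normalized values and their own comparisons (log2 fold changes and adjusted p-values) were not used. Groups follow the labels, and the series states biological triplicates.

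The test was edgeR's quasi-likelihood F-test (version 4.0.16, R 4.3.3) with TMM scaling, filterByExpr (minimum count 10), 1 model over all groups without covariates, and Benjamini-Hochberg adjustment over all 357029 tested sites. The common biological coefficient of variation was 0.0817. Reads of a gene were also summed over its sites and tested over 26743 genes. The fit was tested on simulated data. No 2 replicates agreed within counting noise (chi-square per degree of freedom 1.08 to 2.51).

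Named sites were, per gene, those within 1000 bases of the start or in a promoter, the highest in Control, the 3 largest falls and rises among calls averaging 1 CPM or more with non-overlapping libraries, and the called site of smallest p in the ARID1A against ARID1B and departure tests. Members and lists were chosen with earlier results of these data known. Sequences came from the GRCh38 reference and RefSeq (GRCh38.p14), where 3 of the 4 genes had an entry, and transcript starts from GENCODE. Alternatives were other scalings, no filter, DESeq2 1.42.0, GC offsets, a replicate block, only the compared groups, other thresholds and leaving out each library.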

Additional observations from a re-analysis of the deposited data

Results flagged for a closer look

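Changes that differed between groups by a direct edgeR test (FDR under 0.01) were taken up here, 19 in all, over 72 tested sites and 2 contrasts. Over all tested sites of the series, 3.79% were lower and 1.43% higher between the combinations. Between ARID1A and ARID1B silencing the shares were 3.69% and 1.05%. Between the combinations (shARID1A/B.2.3 minus shARID1A/B.4.2, log2 scale), LMO1 differed by -0.40 at +29.8 kb, -0.40 at +20.7 kb, -0.36 at +0.6 kb, -0.63 at -4.8 kb, -0.70 at -19.8 kb, -0.54 at -52.6 kb and -0.41 at -65.5 kb, and LMO2 by -0.41 at +21.4 kb and -0.67 at -50.0 kb. All 9 differences had the same sign, but only 2 of the calls, at LMO1 -4.8 kb and LMO1 -19.8 kb, held with promoter scaling. Between ARID1A and ARID1B silencing (ARID1A minus ARID1B), LMO1 differed by -0.26 at +34.4 kb, -0.36 at -19.8 kb and -0.56 at -26.3 kb, LMO2 by -0.70 at -50.0 kb, and LMO3 by -0.49 at -1.3 kb and -0.38 at -180.3 kb. LMO4 differed by 0.48 at -55.6 kb, -0.40 at -37.8 kb, 0.25 at -1.7 kb and -0.37 at +3.6 kb, so that the sign changed within this gene. Of these ARID1A against ARID1B calls, some were lost when 1 library was left out. This was so in 13 of 21 fits at LMO1 +34.4 kb, 11 at LMO3 -180.3 kb, 12 at LMO4 -37.8 kb and 6 at LMO4 -55.6 kb. The reason for these differences was not tested.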

How the results depend on the processing

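Of 620 alternative values of the 20 named sites after combined silencing, 572 stayed on the same side of the threshold, 38 no longer passed and 10 newly passed, and none passed in the opposite direction. After combined silencing, promoter scaling moves changes downwards and so could lose only the opened call at LMO4 -1.7 kb, which it did not (FDR 0.0088). Of the closed calls, LMO1 +31.5 kb was lost with DESeq2 size factors (FDR 0.011) and LMO4 -37.8 kb with GC offsets (FDR 0.011). The LMO1 sum changed by -0.28 to -0.24 when 1 library was left out, and the sums of LMO2 (0.02 to 0.08), LMO3 (-0.17 to -0.01) and LMO4 (-0.01 to 0.10) stayed without a call.

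Counts of called sites moved by over 1.5 times as follows, and the cause was not tested unless the setting itself changes the number of calls. With promoter scaling 19 sites closed with combined, 13 with ARID1A and 6 with ARID1B silencing (15.9%, 9.64% and 5.86% of all sites). In the same setting 0 opened with ARID1A or ARID1B silencing (0.329% and 0.574% of all sites), and 13 were lower than single silencing. It called 16 sites with shARID1A/B.4.2 and 2 between the combinations, against 4 between them with total counts only. With GC offsets 3 opened with combined, 0 with ARID1A and 2 with ARID1B silencing (2.62%, 0.967% and 1.32% of all sites), and 2 departed from the sum. With DESeq2, 0 opened with ARID1B silencing (1.19% of all sites) and 6 differed between ARID1A and ARID1B. With only the compared groups 9 were called with shARID1A/B.2.3. At an FDR under 0.05, 6 opened with combined and 3 with ARID1A silencing, 4 closed and 2 opened with ARID1B silencing, 15 were lower than single silencing, 15 were called with shARID1A/B.4.2, 15 between the combinations and 3 in the departure. With a log2 change of at least 1, 3 closed and 0 opened with combined silencing, 0 were called with ARID1A or ARID1B, 0 were lower and 1 higher than single silencing, 4 were called with shARID1A/B.2.3, 2 with shARID1A/B.4.2, and 0 between the combinations, between ARID1A and ARID1B or in the departure. Where no share over all sites is given, as at these other thresholds, the counts cannot be set against a background.

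Leaving out 1 library in turn gave 7 to 10 closed and 1 to 4 opened sites with combined silencing (4 without shARID1A/B.2.3 replicate 2), 4 to 7 closed (4 without Control replicate 1) and 0 to 3 opened with ARID1A, 2 to 3 closed and 0 to 2 opened with ARID1B, 7 to 10 lower and 3 higher than single silencing, 9 to 15 called with shARID1A/B.2.3 (9 without its replicate 2), 9 to 10 with shARID1A/B.4.2, 4 to 13 between the combinations (4 without shARID1A/B.4.2 replicate 2), 6 to 11 between ARID1A and ARID1B (6 without shARID1A.2 replicate 3, shARID1B.2 replicate 3 or shARID1B.3 replicate 2) and 0 to 2 in the departure.

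Same-numbered libraries did not deviate together throughout (r from -0.16 to 0.305, and 13 of 21 libraries correlated best with their own number), so the numbers were not taken to pair samples. With the replicate block over all groups, 10 LMO sites closed and 1 opened with combined silencing (10.5% and 3.86% of all sites). Fitting the replicate block on the compared groups alone, 12 closed and 2 opened with combined silencing (11.3% and 4.9% of all sites). In such fits 3 opened with ARID1A and 0 with ARID1B silencing (3.78% and 1.3% of all sites), and 21 were called with shARID1A/B.2.3. Depth limits the 25 sites under 1 CPM in Control most, and TMM cannot show a change shared by most sites.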
